A study of Mus musculus with 13 samples.

Results

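H3K27ac, acetylation of lysine 27 on histone H3, was compared between C57BL/6 mouse bone marrow-derived macrophages carrying a scramble shRNA with and without 4 h of interferon-γ (IFNγ). The comparison uses 2 of the 13 libraries of the series, chosen by their labels as the scramble library given IFNγ at 100 ng/ml and the scramble library without treatment, both on day 7 of differentiation. Its units are 34015 regions, obtained by merging the enriched islands of these 2 libraries. Scramble is the control hairpin of a knockdown experiment whose other arms carry an shRNA named shJunB or shCEBPb, each also untreated and after 4 h of IFNγ at 100 ng/ml. A further pair, untreated and after 4 h of the same dose, comes from libraries for which the labels name no shRNA. In every group marrow was grown in medium conditioned by L929 cells, which supplies the growth factor that macrophages need. Each condition had 1 library, so no difference between the scramble libraries can be set against a spread between replicates. The labels do not say how the shRNAs were delivered or whether animals were pooled.

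H3K27ac marks active promoters and enhancers and is written by the acetyltransferases p300 and CBP. IFNγ binds a receptor made of IFNGR1 and IFNGR2, and the kinases JAK1 and JAK2 bound to it start a signal that ends at a DNA element called GAS. IRF1 and other interferon regulatory factors bind another element, the ISRE. In macrophages this pathway is known for killing of intracellular microbes, antigen presentation and nitric oxide production.

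The untreated scramble library held 22013572 reads and the IFNγ library 14340693, with 68.6% and 70.6% of reads in islands. The other 6 libraries used held 21712118 to 35743208. These depths and shares depend on the control total chosen, as described under processing. Reads were scaled by the median ratio over regions called in both libraries and are given as normalised reads, first without treatment and then with IFNγ. Below, higher or lower means a difference of at least 2-fold with IFNγ, with at least 50 normalised reads in the library that has more. For this size rule a region or gene with no island at all in a library entered at the 5th percentile of that library's islands. Such a region or gene is written as not called, with no fold. Each 95% interval of a fold is an exact binomial one and covers counting error only. Genes were given the summed reads of all regions that touch their span in the RefSeq annotation of GRCm38.p6, widened by 1 kb at both ends. If a gene had islands in both libraries, a region not called in one of them added nothing to its sum there. Folds and intervals of such genes therefore rest partly on uncalled regions, whose reads are not known. These are amounts of mark over a population, in which fewer cells carrying a mark and less mark per cell cannot be told apart.

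Of 30527 regions that reached the minimum, 4911 (16.1%) were higher with IFNγ and 3933 (12.9%) lower. Both libraries had an island in 22639 of the 34015 regions, 6164 were called only without treatment and 5212 only with IFNγ. Regions of 1 library were mostly small, with medians of 61.2 normalised reads without treatment and 73.6 with IFNγ, and 365 and 436 of them reached 200 reads. Among 13407 protein-coding genes measured, 889 (6.63%) were higher and 937 (6.99%) lower, and the median log2 ratio of all was -0.03. Of the 13765 genes with a region, 6561 (47.7%) share one with another gene, and their values cannot be told apart there. The highest ratio among genes called in both libraries was that of Sun3, a protein of the nuclear envelope (35.1 and 923 reads, 26.3-fold higher). The lowest was that of Grik4, a glutamate receptor subunit (886 and 49.0 reads, 18.1-fold lower), although per kb of called length its log2 ratio was 0.42. Chrm3, a muscarinic receptor, combined a high ratio with many reads (421 and 5530.4, 13.1-fold higher). Adam22 and Cmah, an enzyme of sialic acid metabolism, had 1731 and 1434 reads without treatment and were not called with IFNγ. Serpina3f, a serine protease inhibitor, had 757 reads with IFNγ and was not called without it.

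**Figure D1:**
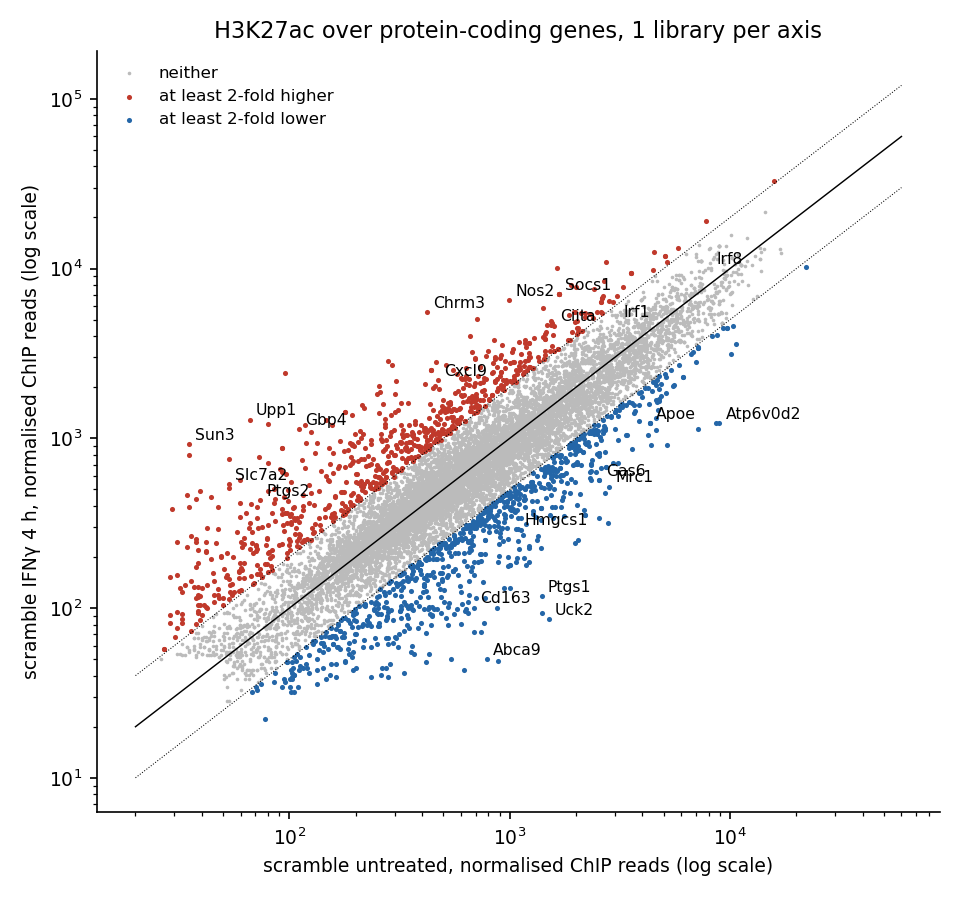
Normalised H3K27ac reads over each protein-coding gene with islands in both scramble libraries, untreated (x, log scale) and after 4 h of IFNγ (y, log scale), 1 point per gene. The solid line marks equal values and the dotted lines a 2-fold difference; Nos2, Gbp4 and Upp1 lie above the upper dotted line, Mrc1, Cd163 and Uck2 below the lower one, and Irf1 and Irf8 between them.

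The shares of regions called are given next by position, with no test between positions. Of 8422 measured regions that covered the start of a protein-coding gene, 4.79% were higher and 4.74% lower. Over gene bodies the shares were 18.3% and 16.0% of 13478 regions, and between genes 23.6% and 16.0% of 8627. Counting only regions with islands in both libraries, 4.05% of start regions, 13.6% of gene body regions and 17.9% of intergenic regions were higher. Start regions also held more reads, with a median of 400.4 normalised reads without treatment against 209 over gene bodies and 173 between genes, and the part of that in the shares was not tested. Chromosome 13 had the highest share of higher regions among the autosomes and X, 22.8%, and chromosome 7 the lowest, 11.6%.

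Reads were split into called length and reads per kb. Over all 22281 measured regions called in both libraries 44.6% were longer with IFNγ and 49.6% shorter. A rule on reads favours a change of length in the same direction, so the next values are a description. In 2478 higher regions called in both libraries the median called length was 3800 bp without treatment and 8600 bp with IFNγ, and 98.6% were longer with IFNγ. Their median log2 ratio was 1.49 for reads, 1.0 for called length and 0.53 for reads per kb of called length. In 2206 lower regions the lengths were 8200 and 3800 bp, 99.1% were shorter, and the medians were -1.36, -1.0 and -0.51. By the same rule on reads per kb of called length 1001 regions were higher and 887 lower, and 238 genes (1.78%) were higher and 188 (1.40%) lower. The folds of reads below hold both quantities, so called lengths stand beside the main ones. Islands covered 219.9 Mb in the untreated library and 217.8 Mb in the shallower IFNγ library, and the part of depth in these lengths was not tested.

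**Figure D2:**
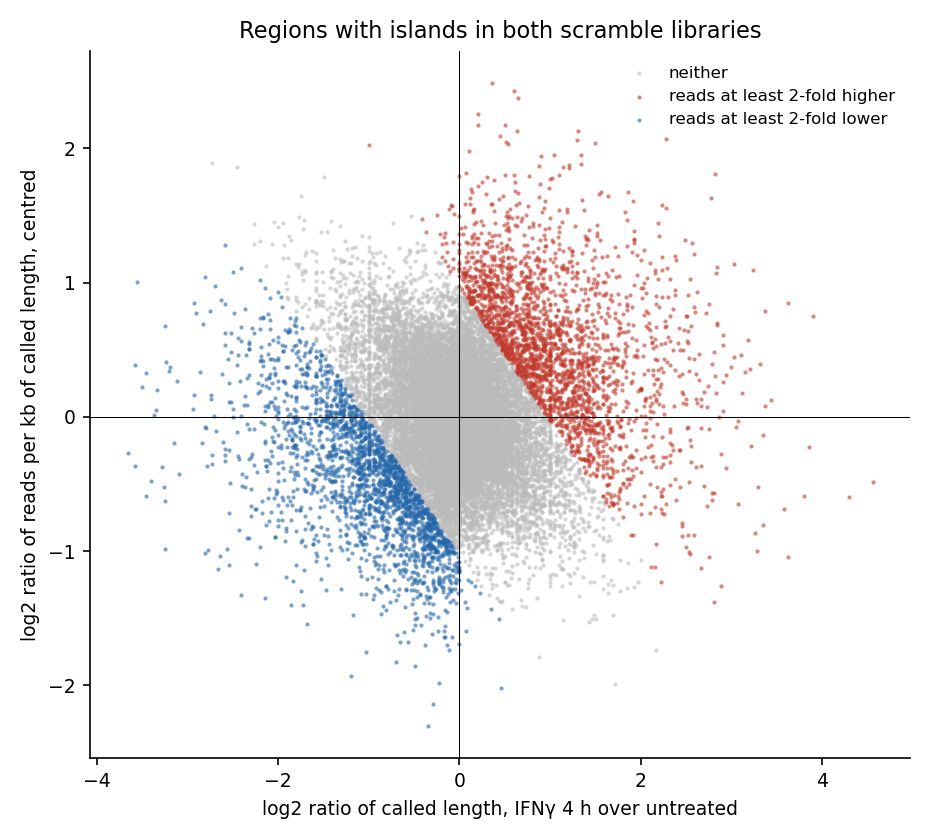
Log2 ratio of called length (x) against log2 ratio of reads per kb of called length, centred on its median (y), IFNγ over untreated, 1 point per measured region with islands in both scramble libraries. Regions with at least 2-fold more reads lie mostly to the right of 0 (98.6% longer with IFNγ) and those with at least 2-fold fewer mostly to the left (99.1% shorter).

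Guanylate-binding proteins (GBPs) and immunity-related GTPases, which attack the vacuoles of intracellular pathogens, had the highest median of the lists. For them 12 of 15 measured genes were higher and 0 lower (2 and 0 on reads per kb), with a median log2 ratio of 1.58, beside 6.63% higher and a median of -0.03 over all genes. Each list below is to be read against 6.63% of all genes higher and 6.99% lower, or 1.78% and 1.40% on reads per kb. Sequences before the start of 3 of these genes are shown because each holds both elements named above. Capitals mark GAS, searched as TTCNNNGAA, and ISRE, searched as GAAA, any 2 bases and GAAA, each on both strands. The windows are the 250 bases before the annotated start, from RefSeq for GRCm38.p6 and read in the direction of transcription, at chr3:142496684-142496933 (plus strand) for Gbp5, chr3:142530086-142530335 (plus strand) for Gbp7 and chr11:58199306-58199555 (plus strand) for Igtp.
Gbp5: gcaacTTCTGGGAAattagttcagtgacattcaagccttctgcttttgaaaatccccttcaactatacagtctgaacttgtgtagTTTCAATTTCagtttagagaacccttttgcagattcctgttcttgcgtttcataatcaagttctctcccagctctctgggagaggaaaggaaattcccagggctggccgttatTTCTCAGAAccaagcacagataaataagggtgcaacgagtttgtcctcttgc
Gbp7: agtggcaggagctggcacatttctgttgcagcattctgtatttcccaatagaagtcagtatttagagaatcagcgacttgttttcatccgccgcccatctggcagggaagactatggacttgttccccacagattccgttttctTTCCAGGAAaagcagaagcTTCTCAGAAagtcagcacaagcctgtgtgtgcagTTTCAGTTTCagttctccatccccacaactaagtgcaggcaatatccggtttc
Igtp: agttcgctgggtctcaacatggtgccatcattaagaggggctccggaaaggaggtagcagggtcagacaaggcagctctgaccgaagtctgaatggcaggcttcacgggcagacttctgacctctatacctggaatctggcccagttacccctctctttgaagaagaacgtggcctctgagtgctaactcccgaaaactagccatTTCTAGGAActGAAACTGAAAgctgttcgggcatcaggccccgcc
Of 12 listed starts of 11 genes on this list, 50.0% held a GAS and 83.3% an ISRE in that window, against 6.58% and 2.96% of all 21263 listed starts. Over the whole comparison a GAS lay before 8.13% of 492 starts in higher regions, 6.48% of 525 in lower regions and 5.85% of 10698 in neither. For the ISRE the shares were 6.30%, 4.38% and 2.63%. A match describes these letters and is no measured binding site.

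Gbp4 (chr5:105115767-105139586) had 110.1 and 1132 normalised reads (10.3-fold higher, 95% interval 8.57 to 12.4) over 3.2 and 20.4 kb of islands. Of these, 904 reads with IFNγ lay in a region at chr5:105136201-105151800 that was not called without treatment, and the remaining region is shared with Gbp9. Gbp5 (chr3:142496934-142522344) had 449 and 1973 reads (4.39-fold higher, 95% interval 3.98 to 4.85) over 9 and 16.4 kb. On the same chromosome Gbp7 (326 and 1112 reads, 3.41-fold higher) and Gbp2 (387 and 1095, 2.83-fold higher), which shares its region with Gbp2b, were higher as well. Among the immunity-related GTPases, Iigp1 had 129 and 405 reads (3.14-fold higher) and Igtp 496 and 1112 (2.24-fold higher). The log2 ratio of Igtp, 1.17, was 0.85 with islands merged across the 8 libraries and 0.84 with genes widened by 10 kb, under the rule in both. Tgtp1 had 248 reads with IFNγ and was not called without it. Irgm1, which regulates other members of the family, had 1772 and 2476 reads (ratio 1.40), and with Irgm2 and Ifi47 it was among the 3 measured members that did not pass. Gbp10 was called in neither library, Tgtp2 stayed under 50 reads, and Gbp11 was not matched.

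Of the genes that carry the IFNγ signal 4 of 19 measured genes were higher and 2 lower (1 and 0 on reads per kb), with a median log2 ratio of 0.30, and in each of the other 3 pairs 0 were lower. The receptor chain gene Ifngr1 had 4431 and 1910.5 normalised reads (2.32-fold lower, 95% interval 2.19 to 2.46), while Ifngr2 had 2431 and 1848 (ratio 0.760). Ifngr1 also had fewer reads with IFNγ in the other pairs, short of 2-fold, on a scale common to the 8 libraries. These reads were 6654.5 and 3629.5 without a named shRNA, 4519 and 2713 in shJunB and 4670 and 3199 in shCEBPb cells. Jak1 had 3460.1 and 1646 reads (2.10-fold lower) over 86.4 and 43.6 kb of islands, at 40.0 and 37.7 reads per kb. Its log2 ratio of -1.07 was -0.98 with genes widened by 10 kb and -0.99 with islands of FDR up to 0.00001, just under the rule. The call was also lost over regions covering the gene start. Among Jak1 regions called in all 8 libraries, the one with most reads had a log2 ratio of -0.007 in scramble cells. Jak2 went the other way, with 761 and 1933 reads (2.54-fold higher, 95% interval 2.34 to 2.76), and the related kinase gene Tyk2 was 2.04-fold higher, with a log2 ratio of 0.87 when widened by 10 kb, under the rule. Batf2, a transcription factor of the AP-1 family, had 631 and 2083 reads (3.3-fold higher). Ciita, the master regulator of MHC class II genes, had 1594 and 4612 reads (2.89-fold higher) over 47.4 and 69.6 kb. Irf1 (3065 and 4893 reads, ratio 1.60) and Irf8 (8167 and 10065, ratio 1.23) did not pass. Islands over Irf1 covered 34.4 and 33.8 kb, so its domain was already long without treatment.

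Among feedback inhibitors of cytokine and inflammatory signalling, 3 of 14 measured genes were higher and 0 lower (2 and 0 on reads per kb), with a median log2 ratio of 0.41. Socs1, which inhibits JAK kinases, had 1672 and 7039 normalised reads (4.21-fold higher, 95% interval 4.00 to 4.43) in a region at chr16:10727201-10797400 that also spans part of Clec16a, Prm1, Prm2, Prm3 and Tnp2. Next to it a stretch at chr16:10802401-10822600 had 1524 reads with IFNγ and was not called without, the most of any intergenic region of that kind. The following region, over Rmi2, a subunit of a DNA repair complex, had 95.4 and 2428 reads (25.4-fold higher, 95% interval 21.1 to 30.9) over 4.2 and 29.8 kb. On the other side, a region within Clec16a at chr16:10659401-10707200 had 312 and 2026 reads. The gain over Socs1 was thus 1 of a row of neighbouring gains. Socs3, another inhibitor, had 5075 and 11842 reads (2.33-fold higher), and Tnfaip3, which restrains NF-kB, 1441 and 4110.4 (2.85-fold higher). The windows before the starts of Socs1, at chr16:10785537-10785786 (minus strand), and Irf1, at chr11:53769764-53770013 (plus strand), are shown because they differ in element: Socs1 holds overlapping ISRE matches and Irf1 a GAS match, again in capitals.
Socs1: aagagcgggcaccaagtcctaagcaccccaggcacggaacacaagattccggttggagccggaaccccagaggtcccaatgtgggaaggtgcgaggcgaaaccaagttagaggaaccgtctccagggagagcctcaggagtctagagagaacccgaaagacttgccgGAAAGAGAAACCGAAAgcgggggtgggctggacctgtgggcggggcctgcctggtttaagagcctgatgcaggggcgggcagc
Irf1: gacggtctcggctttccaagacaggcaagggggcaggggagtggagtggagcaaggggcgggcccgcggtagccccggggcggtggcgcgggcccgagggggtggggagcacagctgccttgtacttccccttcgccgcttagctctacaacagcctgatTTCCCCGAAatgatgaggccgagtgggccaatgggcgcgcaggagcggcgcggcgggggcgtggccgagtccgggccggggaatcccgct

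**Figure D3:**
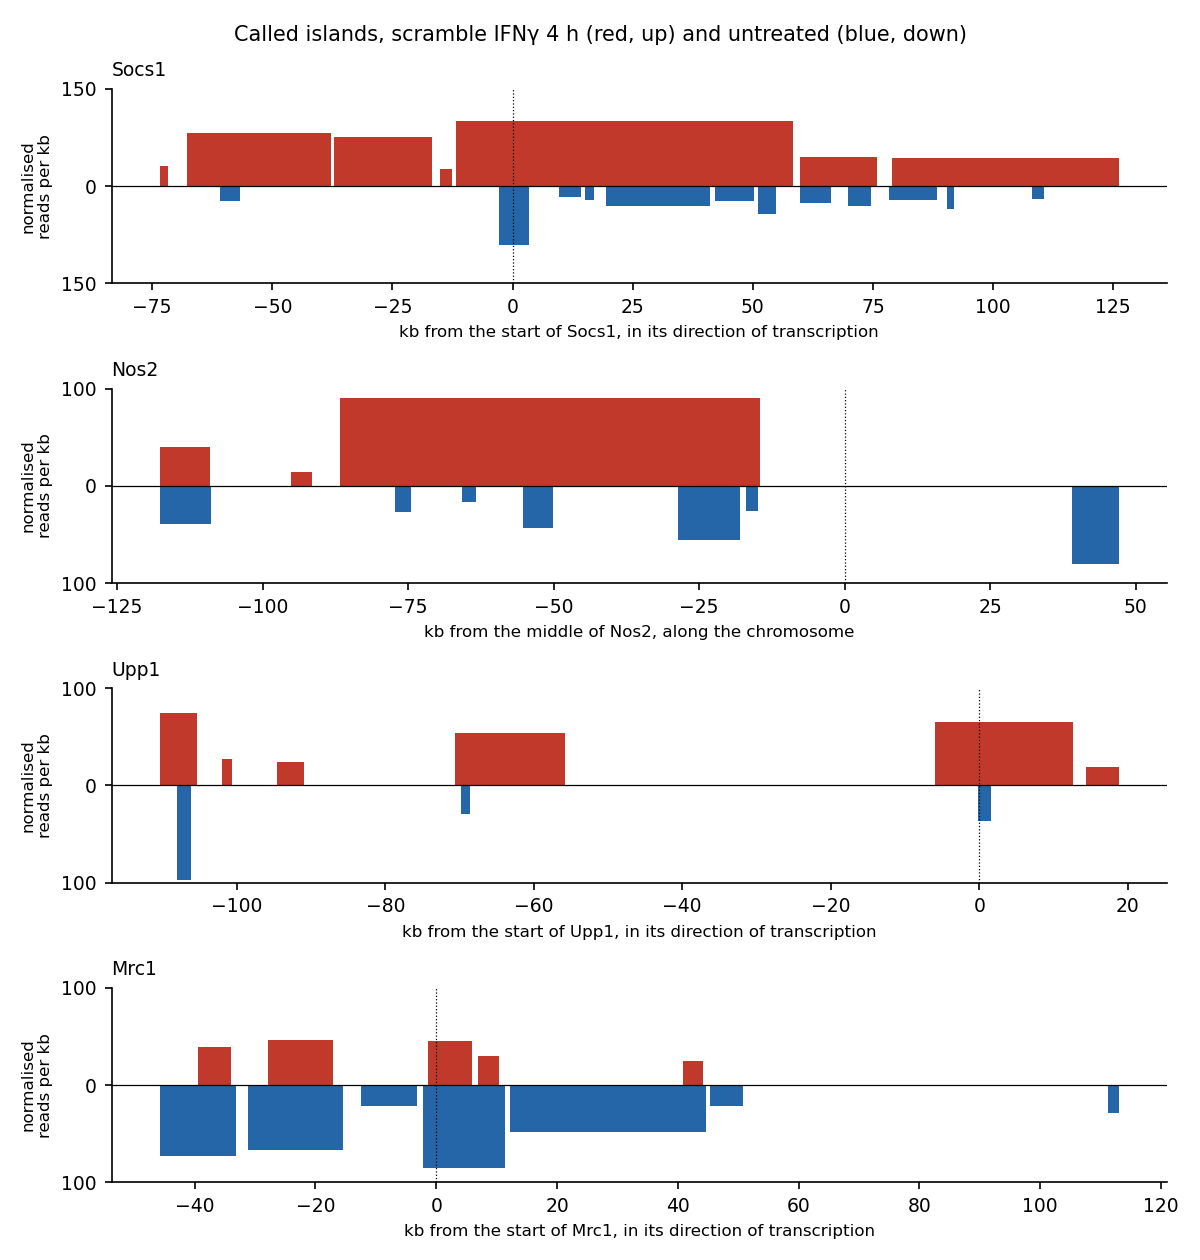
Islands of the scramble libraries around 4 genes, as normalised reads per kb of island (y, upward in red with IFNγ, downward in blue untreated) against distance from the start of Socs1, Upp1 and Mrc1 or the middle of Nos2 (x, kb). Islands with IFNγ reach farther around Socs1, Nos2 and Upp1, and untreated islands reach farther around Mrc1.

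Of the genes of classical activation, the microbicidal programme, 12 of 23 measured genes were higher and 0 lower (7 and 0 on reads per kb), with a median log2 ratio of 1.29. Nos2 (chr11:78920787-78960226), the inducible nitric oxide synthase, had 990.0 and 6514 normalised reads (6.58-fold higher, 95% interval 6.18 to 7.01), over 23.2 and 72.2 kb of islands. Slc7a2, which imports its substrate arginine, had 53.0 and 538 reads (10.2-fold higher), with a log2 ratio of -0.04 per kb of called length. Ass1, which acts in resynthesis of arginine from citrulline, had 90.5 and 657 reads (7.26-fold higher). These levels depend on the merging. With islands merged across the 8 libraries, on their common scale, Ass1 had 1094 and 4775 reads, Nos2 1243.5 and 8227, and Slc7a2 66.6 and 680. The chemokine genes Cxcl9 (471 and 2208 reads, 4.69-fold higher) and Cxcl10 (1417 and 5832, 4.11-fold higher), which attract T cells, were higher too. Acod1, which makes itaconate, had 1856 and 5319.5 reads (2.87-fold higher) over 43.8 and 41.4 kb, so its islands were denser and not longer. The cytokine gene Il6 was 2.82-fold higher from low levels (58.7 and 166 reads). Il12b (ratio 1.30) and Tnf (ratio 1.52) did not pass, and Ido1 was called in neither library. With islands merged across the 8 libraries Il12b had 1174 and 1059 reads, the opposite direction.

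Ptgs2 and Ptgs1, members of different lists, encode the cyclooxygenases, which start prostaglandin synthesis; prostaglandin genes had no list of their own. Ptgs2, the inducible cyclooxygenase, had 73.4 and 430.4 reads (5.86-fold higher, 95% interval 4.64 to 7.48), and Ptges, a synthase acting after it, 795 and 3247 (4.08-fold higher). Ptgs1, the constitutive cyclooxygenase, had 1396 and 118 reads (11.9-fold lower, 95% interval 9.65 to 14.7) over 32.8 and 5.4 kb.

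The counts for antigen presentation and antiviral genes stand beside 6.63% of all genes higher and 6.99% lower. For MHC class II 2 of 11 measured genes were higher and 0 lower (0 and 0 on reads per kb), with a median log2 ratio of 0.06. The 2 were Ciita and H2-Ab1, a class II β chain (102 and 323 reads, 3.16-fold higher), while the α chain gene H2-Aa had 56.3 and 45.4 reads. With islands merged across the 8 libraries H2-Ab1 had 606 and 1072 reads, and its log2 ratio of 0.82 ended the call. For MHC class I and antigen processing 0 of 16 measured genes were higher and 0 lower (0 and 0 on reads per kb), with a median log2 ratio of 0.44, and 14 of the 16 lay above 0, with B2m, the class I light chain, at a ratio 1.44 and the peptide transporter Tap1 at 1.35. Of the interferon-stimulated antiviral genes 2 of 26 measured genes were higher and 1 lower (0 and 0 on reads per kb), with a median log2 ratio of 0.39, and 22 of the 26 lay above 0. Usp18, which dampens type I interferon signalling, had 1039 and 2804 reads (2.7-fold higher), and Zbp1, a nucleic acid sensor, 659.7 and 1453 (2.2-fold higher). Ifitm3, which blocks virus entry, had 3008 and 1422 reads (2.11-fold lower), and with genes widened by 10 kb its log2 ratio of -0.86 did not pass.

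Nucleotide metabolism held the widest span of any list. There 2 of 19 measured genes were higher and 2 lower (0 and 1 on reads per kb), with a median log2 ratio of -0.20. Among all genes the shares were 6.63% higher and 6.99% lower. Upp1 (chr11:9118008-9136170), which splits uridine, had 66.1 and 1290.0 normalised reads (19.5-fold higher, 95% interval 15.6 to 24.8) over 1.8 and 23 kb. Uck2 (chr1:167222895-167285933), which phosphorylates uridine, had 1501 and 85.8 reads (17.5-fold lower, 95% interval 13.8 to 22.5) over 47.8 and 3.6 kb. These enzymes act on the same substrate, and their islands differed in opposite directions. Nt5e, which makes extracellular adenosine, was 3.71-fold higher, with a log2 ratio of -0.44 per kb. Umps, which makes uridine monophosphate, was 2.22-fold lower in a region shared with Itgb5 and Kalrn, and its log2 ratio was 0.01 over the region at its start and -0.85 with islands merged across the 8 libraries, which did not pass.

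Of glycolysis genes and the HIF pathway, 4 of 20 measured genes were higher and 0 lower (1 and 0 on reads per kb), with a median log2 ratio of 0.42, and 19 lay above 0. Hif1a, the oxygen-regulated transcription factor, had 1566 and 4083 reads (2.61-fold higher). The phosphofructokinase gene Pfkp was 2.78-fold higher, Egln3, a prolyl hydroxylase that acts on HIF, 2.77-fold higher, and the hexokinase gene Hk3 2.26-fold higher.

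Lipid handling had the lowest median of the lists, as 2 of 21 measured genes were higher and 5 lower (0 and 2 on reads per kb), with a median log2 ratio of -0.48. Apoe, the lipoprotein component, had 4311 and 1232 normalised reads (3.50-fold lower, 95% interval 3.27 to 3.75) in a region shared with Apoc1, Apoc2 and Apoc4. The ABC transporter gene Abca9 had 786 and 50.3 reads (15.6-fold lower), and Abca1, which exports cholesterol, 4570.0 and 2142 (2.13-fold lower). Fabp5, a fatty acid binding protein, was 2.79-fold lower. The lipoprotein lipase gene Lpl (1067 and 2536 reads, 2.38-fold higher) and the scavenger receptor gene Cd36 (2383 and 5144, 2.16-fold higher) were the 2 that were higher. For cholesterol synthesis and uptake 0 of 21 measured genes were higher and 2 lower (0 and 0 on reads per kb), with a median log2 ratio of -0.12. Both list counts stand beside 6.63% of all genes higher and 6.99% lower. Hmgcs1, an early enzyme of synthesis, had 1094 and 291 reads (3.77-fold lower) over 19.4 and 4 kb, and per kb its log2 ratio was 0.33.

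Alternative activation genes, which interleukin-4 is known to induce, were mixed: 7 of 26 measured genes were higher and 6 lower (1 and 0 on reads per kb), with a median log2 ratio of 0.17. Mrc1 (chr2:14229414-14332023), the mannose receptor, had 2832 and 519.9 normalised reads (5.45-fold lower, 95% interval 4.92 to 6.04) over 51.4 and 14.2 kb. Cd163, the haemoglobin scavenger receptor, had 685 and 101 reads (6.81-fold lower) over 19 and 2.8 kb. The chemokine gene Ccl24 had 353 reads without treatment and was not called with IFNγ. Irf4, a transcription factor of this programme, was 2.16-fold lower, and the nuclear receptor gene Pparg had 3749.6 and 1904 reads and did not pass. Arg1, which consumes arginine, was 2.18-fold higher (930.5 and 2024 reads), and Il1rn, the interleukin-1 receptor antagonist, 4.09-fold higher (630.4 and 2580.0 reads). The VEGF receptor gene Flt1 was 3.81-fold higher. The E-cadherin gene Cdh1 was 4.65-fold higher, with a log2 ratio of -0.25 per kb.

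Of efferocytosis genes and TAM receptors, which clear dying cells, 1 of 19 measured genes were higher and 3 lower (0 and 2 on reads per kb), with a median log2 ratio of 0.00. These counts stand beside 6.63% higher and 6.99% lower over all genes. Gas6, a TAM receptor ligand, had 2554 and 565 reads (4.52-fold lower) and the scavenger receptor gene Stab2 761 and 82.2 (9.26-fold lower). The TAM receptor genes Axl and Mertk stood at log2 ratios of 0.01 and -0.33 and did not pass. Of coagulation and complement genes 6 of 19 measured genes were higher and 3 lower (1 and 0 on reads per kb), with a median log2 ratio of 0.26. F3, tissue factor, which starts clotting, had 53.0 and 752 reads (14.2-fold higher). Procr, the protein C receptor, had 146 and 1281 reads (8.78-fold higher). The region shared by the clotting factor genes F7 and F10 had 768 and 251 reads (3.06-fold lower).

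Of inflammasome and cell death genes 4 of 21 measured genes were higher and 1 lower (1 and 1 on reads per kb), with a median log2 ratio of 0.28. Bcl2l14, of the BCL2 family, had 79.9 and 1215 reads (15.2-fold higher), the death ligand gene Tnfsf10 216 and 1066 (4.93-fold higher), and the necroptosis effector gene Mlkl was 2.56-fold higher. Per kb of called length the log2 ratios of Tnfsf10 and Mlkl were -1.18 and -0.34, and with genes widened by 10 kb that of Mlkl, 0.89, did not pass. Ripk1, a kinase of death receptor signalling, was 2.26-fold lower. Of costimulatory and checkpoint genes 5 of 17 measured genes were higher and 1 lower (1 and 0 on reads per kb), with a median log2 ratio of 0.26. The T cell costimulator gene Cd86 had 1534 and 4632 reads (3.02-fold higher), Cd40 1226 and 3629.7 (2.96-fold higher), and Tnfsf13b, the B cell survival factor BAFF, was 4.63-fold higher. Cd274, which encodes PD-L1, had 2189.6 and 4351 reads (ratio 1.99) and lay just under the rule. Of NF-kB and inflammatory genes 5 of 26 measured genes were higher and 2 lower (3 and 0 on reads per kb), with a median log2 ratio of 0.25; the region of the chemokine genes Ccl2, Ccl7 and Ccl11 had 3553 and 9474 reads (2.67-fold higher), and Cxcl3, a neutrophil chemokine, had 262 reads without treatment and was not called with IFNγ.

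**Figure D4:**
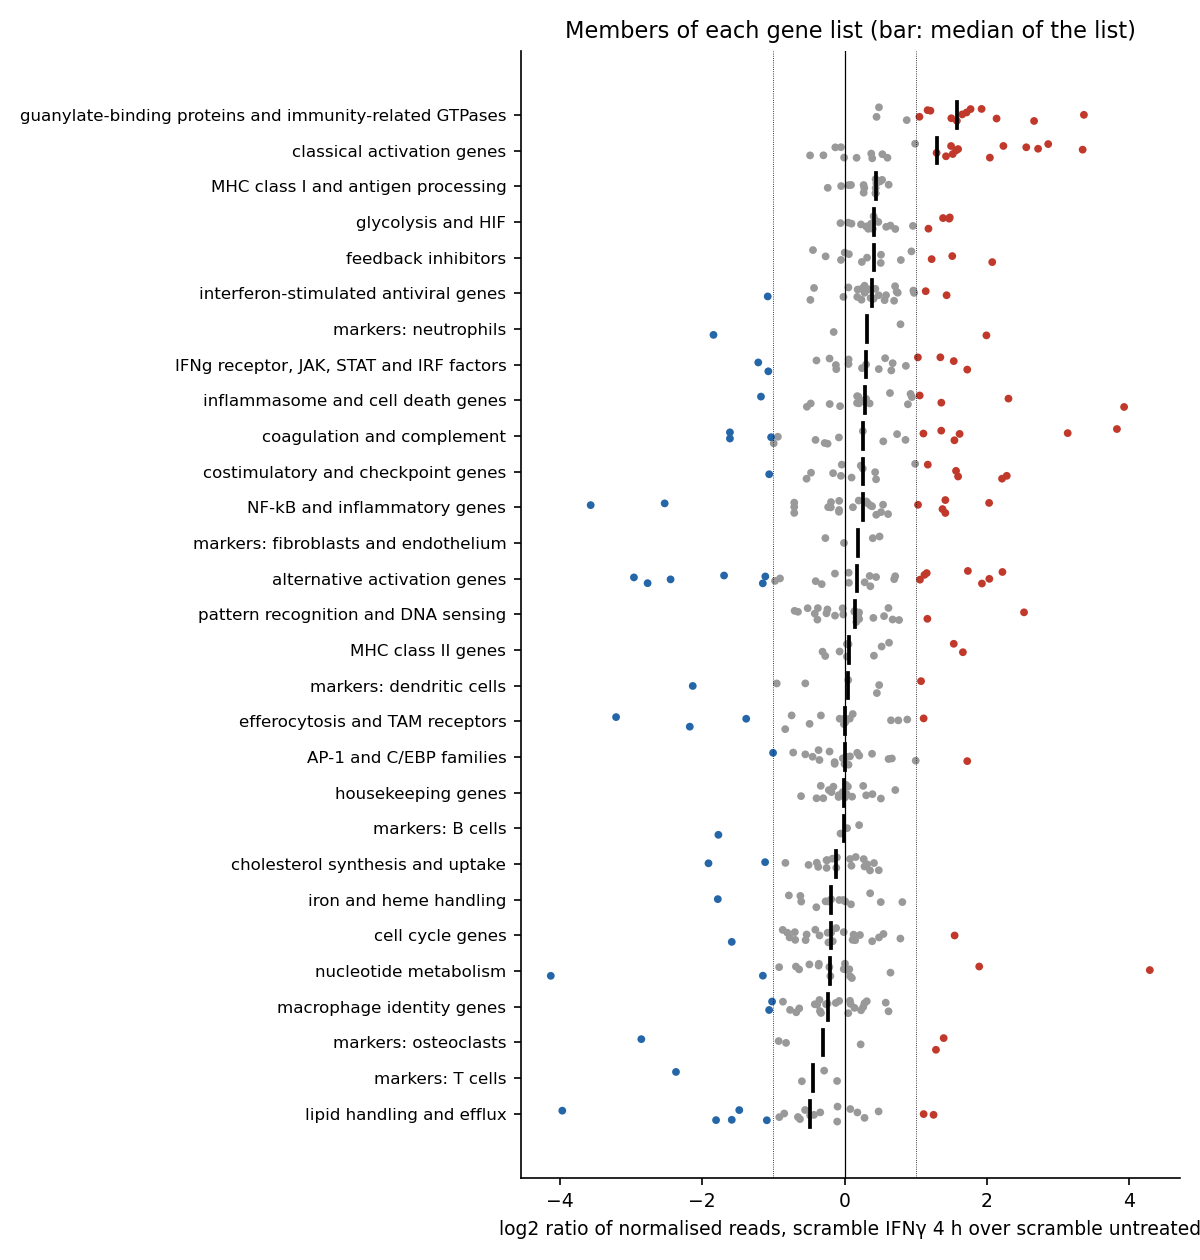
Log2 ratio of normalised reads, scramble IFNγ 4 h over scramble untreated (x), of each measured member of 29 gene lists (rows, ordered by median), 1 point per gene. Red points were called higher, blue lower and grey neither, dotted lines mark 2-fold and black bars the medians; GTPases (1.58) and classical activation genes (1.29) are at the top and lipid handling (-0.48) at the bottom.

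Of 1005 listed microRNA hairpins 312 lay in a region, and of 300 measured 27 were higher and 20 lower, together 15.7%. Of all regions 16.1% were higher and a further 12.9% lower, so the combined share of hairpins was below that of regions. Hairpins in the same region, as Mir99a and Mirlet7c-1, have the same values and were counted separately. Mature sequences of the microRNAs described next are shown with the seed, bases 2 to 8, which pairs with targets, in capitals. They come from RefSeq for GRCm38.p6, and the 5 seeds shown differ from each other.
mmu-miR-155-5p: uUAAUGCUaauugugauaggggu
mmu-miR-147-5p: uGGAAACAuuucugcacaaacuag
mmu-miR-511-3p: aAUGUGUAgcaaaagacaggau
mmu-miR-223-3p: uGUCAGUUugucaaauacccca
mmu-miR-33-5p: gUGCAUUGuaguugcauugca
Mir155 (chr16:84714140-84714204), known for its part in inflammatory activation, lay in a region with 255 and 2224 normalised reads (8.71-fold higher, 95% interval 7.73 to 9.86). Mir147 (chr2:122640803-122640881) lay in one with 79.9 and 712 reads (8.91-fold higher). Mir511 (chr2:14261003-14261081) sits within Mrc1, in a region with 1562 and 84.6 reads (18.5-fold lower). The region over the start of Mrc1, at chr2:14227201-14240800, had 1156 and 435 reads (2.66-fold lower), so the fold was larger within the gene than at its start. Mir223 (chrX:96242817-96242926), a microRNA of myeloid cells, lay in a region with 1202 and 558 reads (2.15-fold lower). Mir33 (chr15:82198122-82198190), within Srebf2 and known to repress Abca1, lay in a region with 169 reads without treatment that was not called with IFNγ. The region of Mir21a had a ratio of 1.14 and did not pass. A region over a hairpin need not be that of its promoter.

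Among intergenic regions the highest ratio was at chr4:64072601-64102800, 25.6 kb from Tnc, with 119.9 and 2609 normalised reads (21.8-fold higher, 95% interval 18.4 to 25.9). The lowest was at chr6:114355001-114367000, 30.9 kb from Hrh1, with 575 and 38.0 reads (15.1-fold lower). The most reads called only without treatment were 1030.0, at chr4:19934001-19955200, 11.4 kb from Atp6v0d2, a proton pump subunit known from osteoclasts, which itself had 8934 and 1234 reads (7.24-fold lower). Called regions also stood in rows. Counting neighbours in the same direction less than 50 kb apart, 153 rows of at least 4 regions were higher and 95 lower. Whether such rows were more frequent than the shares of called regions would give was not tested. The longest higher rows had 12 regions, over Creb5, a factor of the ATF family (1781 and 9837 reads over 55.4 and 194.4 kb of islands), and over Kif14 and Zfp281 (2581 and 9706 reads). The longest lower row had 9 regions over St6gal1, a sialyltransferase (7415 and 825 reads over 132.8 and 26.8 kb).

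All 25 macrophage identity genes had a region, among them the factor gene Spi1 (log2 ratio 0.05) and the receptor gene Csf1r (-0.26). Of these, 0 were higher and 2, Lyz2 and Ctsd, were lower, beside 6.63% and 6.99% of all genes. Lyz2 stood at a log2 ratio of -1.02, which was -0.99 when scaled by library totals. Of 20 housekeeping genes 0 were higher and 0 lower. Of markers of other cells 4 of 10 for T cells, 4 of 8 for B cells, 7 of 9 for dendritic cells, 4 of 9 for neutrophils, 4 of 11 for fibroblasts and endothelium and 0 of 8 for mast cells and basophils were measured. Cd3e, Cd8a, Pax5, Ly6g, Mpo, Col1a1 and Kit were called in neither library. Summed normalised reads were 6186 and 4005 for T cell markers, 3919 and 3703 for B cell, 8736 and 8469.8 for dendritic cell, 3418 and 3976 for neutrophil and 12811 and 12294 for fibroblast and endothelial markers. Lower among them were Cd28 (T cells), Cd79b (B cells), Flt3 (dendritic cells) and Elane (neutrophils). Itgax (dendritic cells) and Camp (neutrophils) were higher. The part of these markers in the results was not tested. Osteoclast markers summed to 13523 and 5361 reads, with Atp6v0d2 lower and Ocstamp and Dcstamp higher, the first 2 in regions shared with Slc7a13 and Slc13a3. Most of the difference between these sums was that of Atp6v0d2 alone, whose reads are given above. Of 6 measured osteoclast markers 3 lay above a log2 ratio of 0 and 3 below. Dcstamp, a fusion protein of osteoclasts, had 62.0 and 151 reads, a log2 ratio of 1.28, which was 0.87 with islands merged across the 8 libraries and 0.70 with genes widened by 10 kb, where it did not pass.

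The other 3 pairs, each with its own untreated library, were set beside the scramble pair over 15930 regions called in all 8 libraries. Across these regions, which are not independent and come from the same libraries, the log2 ratios of the scramble pair correlated with those of the shCEBPb pair at a Pearson r of 0.84 and a Spearman rho of 0.82, the shJunB pair at 0.83 and 0.80, and the pair without a named shRNA at 0.76 and 0.73. The standard deviation of the log2 ratios over regions was 0.81 in scramble, 0.76 in shCEBPb, 0.80 in shJunB and 1.17 in the pair without a named shRNA. Over these regions 1483 (9.31%) were higher and 1382 (8.68%) lower in scramble cells. In the 3 other pairs edgeR's quasi-likelihood test with the pair as a block called 2487 regions (15.6%) higher and 2293 (14.4%) lower at a Benjamini-Hochberg adjusted p under 0.05. Those 3 pairs differ in shRNA and are not replicates of 1 condition. Of the 1483 regions higher in scramble cells 1142 (77.0%) were called higher there and 3 lower, and of the 1382 lower ones 1059 (76.6%) were called lower and 1 higher. As shares of the calls in the other pairs these were 45.9% and 46.2%. Without the shJunB pair the counts of calls were 744 and 467, and without the shCEBPb pair 1111 and 648.

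The difference between the scramble response and that of the other 3 pairs was tested by the interaction term. edgeR's quasi-likelihood test called 0 of 15930 regions (0.0%) at an adjusted p under 0.05. Without adjustment 381 of the 15930 had a p under 0.05, of which 211 were positive and 170 negative. That is a smaller share than this threshold would let through if no response differed. DESeq2 called 1, at chr13:45187401-45237400, with no protein-coding gene within 1 kb, named here because it was the one call. On a scale common to the 8 libraries it had 92.2 reads untreated and 1011 with IFNγ in scramble cells, 1261 and 799 in shJunB cells, 766 and 989.8 in shCEBPb cells, and 158 and 55.3 in the pair without a named shRNA. The test assumes that the lone scramble pair varies like the other 3, and a missed threshold does not show that the responses were alike.

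At the level of genes, the same size rule called 8.07% of genes higher and 5.68% lower in the shJunB pair, 7.23% and 6.13% in the shCEBPb pair, and 15.8% and 12.2% in the pair without a named shRNA. Of the genes higher in scramble cells 839 were measured in all pairs. Of these 519 were higher in each of the 3 other pairs, 60 in none of them, and 7 were lower in at least 1. Of 866 lower genes 328 were lower in each of the other 3, 121 in none, and 12 were higher in at least 1. For each of 103 named genes with a region in the fit, the region with most reads was taken, which need not be the one behind its fold. For 85 genes that region had an adjusted p under 0.05 by edgeR in the other 3 pairs. Each lay in the direction of the gene in the scramble pair. Of all regions 15.6% were called higher and 14.4% lower in that fit. Genes sharing a region, as Socs1 and Rmi2, were counted separately. Most named genes were chosen for their high or low ratios in the scramble pair.

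Interferon lists had these medians side by side, with the difference between pairs not tested. The GTPase medians of log2 ratios were 1.58 in scramble, 2.35 in shJunB, 2.12 in shCEBPb cells and 2.93 in the pair without a named shRNA. MHC class II medians were 0.06, 0.83, 0.51 and 1.78, and antiviral medians 0.39, 0.69, 0.46 and 1.49, in that order. Cholesterol medians were -0.12, -0.24, -0.03 and -1.47. On the common scale the GTPase genes of scramble cells differed from those of the pair without a named shRNA by a median log2 of 0.17 untreated and -1.04 with IFNγ, where 16 of 16 with a region lay lower in scramble cells. For MHC class II genes the medians were 0.10 and -1.08, and 11 of 11 lay lower with IFNγ. Over all genes they were 0.01 and 0.01, and the GTPase and MHC class II medians lay farther from these with IFNγ than without. Other lists lay lower in scramble cells with IFNγ too, as pattern recognition genes (-0.56, 23 of 28) and macrophage identity genes (-0.36, 21 of 25). Their untreated medians were -0.22 and -0.40, so the macrophage identity genes lay lower without IFNγ as well. Housekeeping genes (-0.0002, 10 of 20) and cholesterol genes (0.66, 4 of 21) did not lie lower with IFNγ. Their untreated medians were -0.22 and -0.59, the cholesterol one of the opposite sign. Of the 8 libraries the scramble IFNγ one was the shallowest and the one set beside it the deepest, and the part of depth was not tested.

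Values of single genes follow side by side, with regions merged within each pair. Nos2 had log2 ratios of 2.72 in scramble, 2.82 in shJunB, 2.63 in shCEBPb cells and 3.19 in the pair without a named shRNA, and Acod1 1.52 in scramble, 1.30 in shJunB, 1.40 in shCEBPb cells and 1.52 in the pair without a named shRNA. Cd163 stood at -2.77 in scramble, -1.24 in shJunB, -0.64 in shCEBPb cells and -1.59 in the pair without a named shRNA, and Uck2 at -4.13 in scramble, -3.05 in shJunB, -2.56 in shCEBPb cells and -2.50 in the pair without a named shRNA. Jak1 stood at -1.07 in scramble, -0.58 in shJunB, -0.50 in shCEBPb cells and -0.58 in the pair without a named shRNA, so its sign was shared by all pairs.

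**Figure D5:**
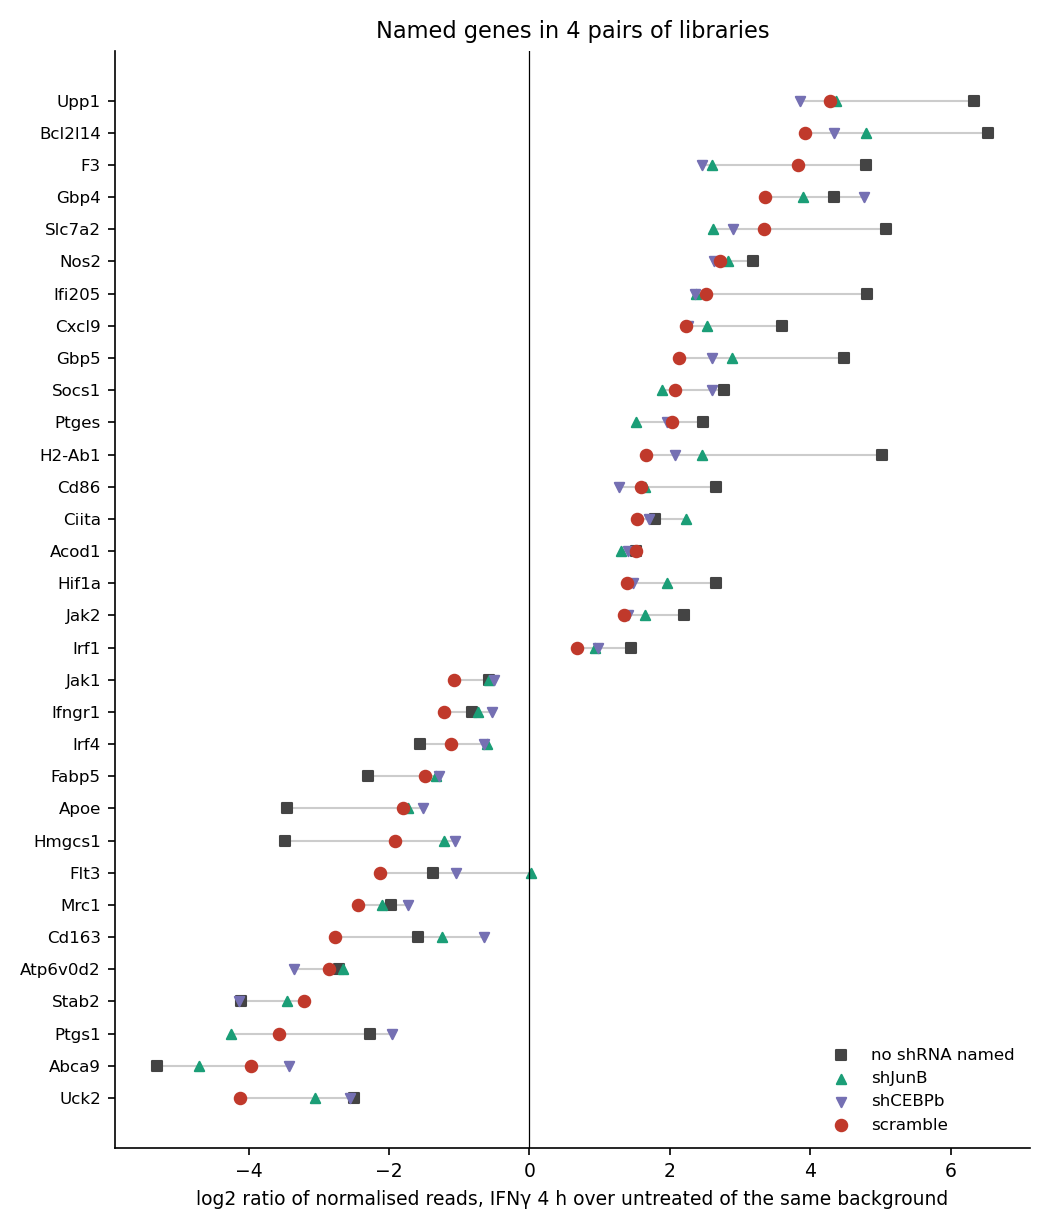
Log2 ratio of normalised reads, IFNγ 4 h over untreated of the same background (x), for 32 named genes (rows) in the scramble pair (red circles), shJunB (green triangles), shCEBPb (violet triangles) and the pair without a named shRNA (black squares). A gene without an island in a library enters at the 5th percentile of that library; Nos2 and Acod1 lie close together in the 4 pairs, and for Gbp5, H2-Ab1 and Hmgcs1 the pair without a named shRNA lies farthest from 0.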

How the data were processed

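H3K27ac ChIP-seq of the 8 libraries described above was used; the other 5 libraries of the series were not used here. Per the submitters' processing notes, Bowtie2 2.2.6, SICER 1.1 and the builds mm10 and GRCm38 were used. Each deposited island table gives raw counts of ChIP and control reads, not normalised by the authors. The deposited tables also hold the authors' p-value and FDR of each island and a fold, the ratio of ChIP to scaled control reads. No island had an FDR above 0.01, so a missing island is no measurement of 0. Control reads were equal in 15311 of 15311 comparisons of islands with the same coordinates. Depths were worked out from the fold values. Of 2 control totals compatible with these values the smaller, 14110230, was used. Depths scale with that choice, and with the larger total the shares of reads in islands would be smaller. The depth ratio of 0.651 does not change with it.

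Islands overlapping by at least 1 bp were merged. The scramble pair has 1 library per condition and got no p-value. The other fits used edgeR 4.0.16 (quasi-likelihood, TMM) in R 4.3.3 on regions called in all 8 libraries, with Benjamini-Hochberg adjustment and DESeq2 1.42.0 as an alternative; tables were made with Python 3.11.15. Scripts were tested on simulated data. Nothing says that libraries came from separate cultures or animals, so p-values measure only the spread between these libraries, which may be technical. That spread also holds any difference in response between pairs that differ in shRNA. Genes were named as the 4 highest and 4 lowest called per list, the 12 highest and 12 lowest of all, those called in 1 library only, and a fixed set. Other genes named beside them are list members picked after their values were seen. Members, lists and rules were chosen with earlier results of these data known. The alternatives tried were other scalings, read minimums, treatment of missing islands, reads per kb, control subtraction, FDR, merging and gene assignment. Some results are not reported here.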

Additional observations from a re-analysis of the deposited data

How the results depend on the processing

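The main counts of regions higher and lower, 4911 and 3933, became 2216 and 1985 with a minimum of 200 reads, 2478 and 2206 without regions of 1 library, 1001 and 887 on reads per kb, and 9374 and 7622 with 50% reciprocal overlap required. Genes higher and lower, 889 and 937, became 238 and 188 per kb of called length and 402 and 411 over regions covering the gene start. In the other 3 pairs, 2487 and 2293 calls became 4177 and 3653 with missing libraries filled in, 744 and 467 without the shJunB pair, and 1111 and 648 without the shCEBPb pair. The difference between responses had 0 calls in each edgeR setting run and 1 with DESeq2. The other 55 counts stayed within 1.5 times the main one.

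Per kb of called length the log2 ratio changed sign for Svep1 (-0.13), 4921504E06Rik (-0.41), Slc7a2 (-0.045), Tnfsf10 (-1.18), Tnfsf4 (-0.075), Cdh1 (-0.25), Nt5e (-0.44), Mlkl (-0.34), Traf6 (-0.12), Hmgcs1 (0.33), Ptgfrn (0.74) and Grik4 (0.42), and over the gene start for Umps (0.0091); the cause was not tested. Il12b, which did not pass, changed sign with islands merged across the 8 libraries (log2 ratio -0.15). Of 130 named genes called, 14 kept the call under all 12 settings and 110 under at least 10, and 96 lost it per kb of called length.

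No fit blocked by replicate number was made, since each condition had 1 library and the labels give no such numbers; the fit of the other 3 pairs was blocked by background. The scramble IFNγ library was the shallowest of the 8, at 14340693 reads, and spread between cultures was not measured.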
